A study of Mus musculus with 27 samples.

Results

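The genes described here are the mouse Wnt ligands, their Frizzled receptors, and the Sfrp and Dkk families of secreted antagonists, followed across 4 groups of hippocampus libraries. Members were chosen by name (gene symbols of the form Wnt, Fzd, Sfrp1 to Sfrp5 or Dkk1 to Dkk4), which gave 37 of the 51826 features in the gene table: 19 Wnt genes, 10 Fzd genes, 4 Sfrp genes and 4 Dkk genes. Wnt2 and Wnt10b were singled out because their measured values stood apart between the sham saline group and the others, so their values are given as a description with no test. RNA came from hippocampi of ICR mice, an outbred strain, after a sham operation or ovariectomy (OVX, removal of the ovaries), each combined with saline or with xanthohumol (Xmo), a prenylated flavonoid of hops. There were 3 sham saline libraries and 4 libraries each of sham Xmo, OVX saline and OVX Xmo. The labels name no transgene or engineered allele, with age, dose and length of treatment not given in the sources used here. Nothing in the labels says that libraries of a group came from separate animals, so p-values measure only the spread between these libraries, which may be technical.

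Wnt proteins are secreted, lipid-modified ligands that bind Frizzled receptors, which have a cysteine-rich outer domain and cross the membrane several times. In the canonical branch, binding to a Frizzled and the co-receptor Lrp5 or Lrp6 stabilises beta-catenin, which acts with Tcf/Lef factors on target genes such as Axin2. Sfrp proteins carry a Frizzled-like domain and bind Wnts outside the cell, while Dkk1, Dkk2 and Dkk4 bind the Lrp co-receptors. In the brain the pathway patterns the developing hippocampus and acts in adult neurogenesis, synapse formation and brain vessels.

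The promoters of Wnt2 and Wnt10b are shown because these ligands differed most plainly between the sham saline libraries and the rest. Those of Wnt3 and Wnt9b are shown because the genes are neighbours on chromosome 11 (24328 bp apart, on opposite strands) and their levels varied widely between libraries. Each line gives the 250 bases before the RefSeq start (RefSeq, GRCm38.p6), 5′ to 3′ on the gene's strand. Capitals mark the GC box GGGCGG read on either strand.
Wnt2: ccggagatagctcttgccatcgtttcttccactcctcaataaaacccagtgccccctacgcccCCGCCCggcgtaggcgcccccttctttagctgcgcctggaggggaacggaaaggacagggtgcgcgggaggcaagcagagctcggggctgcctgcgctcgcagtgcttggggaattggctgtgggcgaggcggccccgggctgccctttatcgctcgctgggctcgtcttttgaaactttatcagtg
Wnt10b: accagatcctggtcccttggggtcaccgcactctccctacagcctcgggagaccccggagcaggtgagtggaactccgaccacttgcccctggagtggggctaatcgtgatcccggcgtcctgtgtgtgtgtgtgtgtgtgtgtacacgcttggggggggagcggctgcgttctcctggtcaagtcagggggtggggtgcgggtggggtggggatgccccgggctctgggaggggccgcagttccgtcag
Wnt3: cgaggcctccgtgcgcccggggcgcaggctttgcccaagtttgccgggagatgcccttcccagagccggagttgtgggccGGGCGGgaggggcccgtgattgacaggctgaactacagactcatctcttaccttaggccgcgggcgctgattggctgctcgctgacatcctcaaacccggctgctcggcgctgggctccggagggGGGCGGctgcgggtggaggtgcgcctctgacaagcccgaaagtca
Wnt9b: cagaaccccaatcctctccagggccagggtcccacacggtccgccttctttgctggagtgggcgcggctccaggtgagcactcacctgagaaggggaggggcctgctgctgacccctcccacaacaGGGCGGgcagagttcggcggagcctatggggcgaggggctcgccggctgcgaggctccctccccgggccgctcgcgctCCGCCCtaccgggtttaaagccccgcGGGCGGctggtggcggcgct
The Wnt2 sequence lies at chr6:18030446-18030695 on the minus strand, is 63.6% G or C and holds 1 GC box. The gene annotation used for the counts starts Wnt2 at 18030585, so part of this window lies inside that annotated gene. The Wnt10b sequence lies at chr15:98778151-98778400 on the minus strand, is 66.8% G or C and holds no GC box, which says only that these letters are not in this window. Wnt3 (chr11:103773925-103774174, plus strand) holds 2 matches and Wnt9b (chr11:103749822-103750071, minus strand) holds 3. The annotation used for the counts starts Wnt3 at 103774150, also inside its window. Of the 37 members, 25 were in the promoter table, and 19 of these 25 held a GC box, against 32.7% of all 32851 promoters of the same length. The Tcf/Lef core CTTTGA was in 4 of the 25 (13.8% of all promoters), the nuclear receptor motif AGGTCA in 1 (14%) and the TATA form TATAAA in 4 (12.4%), each counted on both strands. These matches describe letters and are not measured binding sites.

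Library totals ran from 20848661 to 39140593 counts. Genes of the mitochondrial genome took 20.2% to 35.4% of the counts in sham saline, 15% to 20.6% in sham Xmo, 12.4% to 17.5% in OVX saline and 13.1% to 17.8% in OVX Xmo. The summed level of hippocampal neuron genes was similar in all groups, at 5149 to 6542 TMM-scaled CPM (CPM is a gene's count as a share of the library, here with edgeR's TMM correction for composition). Markers of neighbouring tissue varied more: the thalamus and habenula list summed to 113 to 825 CPM and the choroid plexus list to 248 to 10914 CPM. Brain endothelium markers summed to 249 to 358 CPM in sham saline and to 187 to 247 CPM in the other 12 libraries, without overlap on this scale. The gap was small, between sham saline 3 at 249.1 and sham Xmo 4 at 247.0 CPM. Without their TMM factors (0.838 and 1.07) these libraries change order, so the lack of overlap depends on the scaling. The part of these marker lists in the member results was not tested. In bulk tissue, fewer cells of a type and less RNA per cell cannot be told apart.

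Most members were expressed at low to moderate levels, and 33 of the 37 passed the filter on low counts. The 4 that did not were Wnt8a (8 counts over all 15 libraries), Wnt3a (10 counts), Dkk1 (2 counts in 1 library) and Dkk4 (0 counts). Levels are compared between genes in TPM, a share of all transcripts that is corrected for transcript length. Among ligands Wnt7b, which in the embryo is needed for brain vessel growth, was highest with a mean of 13.6 TPM over the 15 libraries (5.46 to 19) and a median 36.8% of the summed Wnt TPM of a library. Next came Wnt7a, which shares receptors with Wnt7b, at a mean of 3.56 TPM, Wnt4 at 3.17, Wnt2 at 2.78 and Wnt9a at 2.78 TPM. The order from Wnt7a to Wnt9a was not separated, since the ranges of these 4 genes over libraries overlapped. At the low end, Wnt10b averaged 0.226 TPM, between Wnt16 (0.671 TPM) and Wnt1 (0.165 TPM).

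Frizzled receptors were more even in level than the ligands. Fzd3, a receptor with known roles in axon guidance, averaged 4.49 TPM (2.73 to 6.91), Fzd4, the Norrin receptor of brain vessels, 4.43, and Fzd6 4.13 TPM. Fzd2 followed at 3.47 and Fzd1 at 2.98 TPM. Fzd10 (0.664 TPM) and Fzd5 (0.343 TPM) were lowest. No receptor dominated: Fzd3 held a median 16.2% of the summed Fzd TPM, with a range of 9.87% to 22.9%.

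Among the Sfrp and Dkk genes, Dkk3 was far above the rest. Dkk3, a secreted glycoprotein that is abundant in neurons, is not among the Dkk proteins named above as binding the Lrp co-receptors. It averaged 145 TPM (46.1 to 212) and held a median 99.8% of the summed Dkk TPM. Its relative Dkk2 averaged 0.295 TPM. Of the Sfrp genes, Sfrp4 averaged 1.82, Sfrp1 1.80, Sfrp5 1.23 and Sfrp2 0.400 TPM, and their ranges overlapped.

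**Figure D1:**
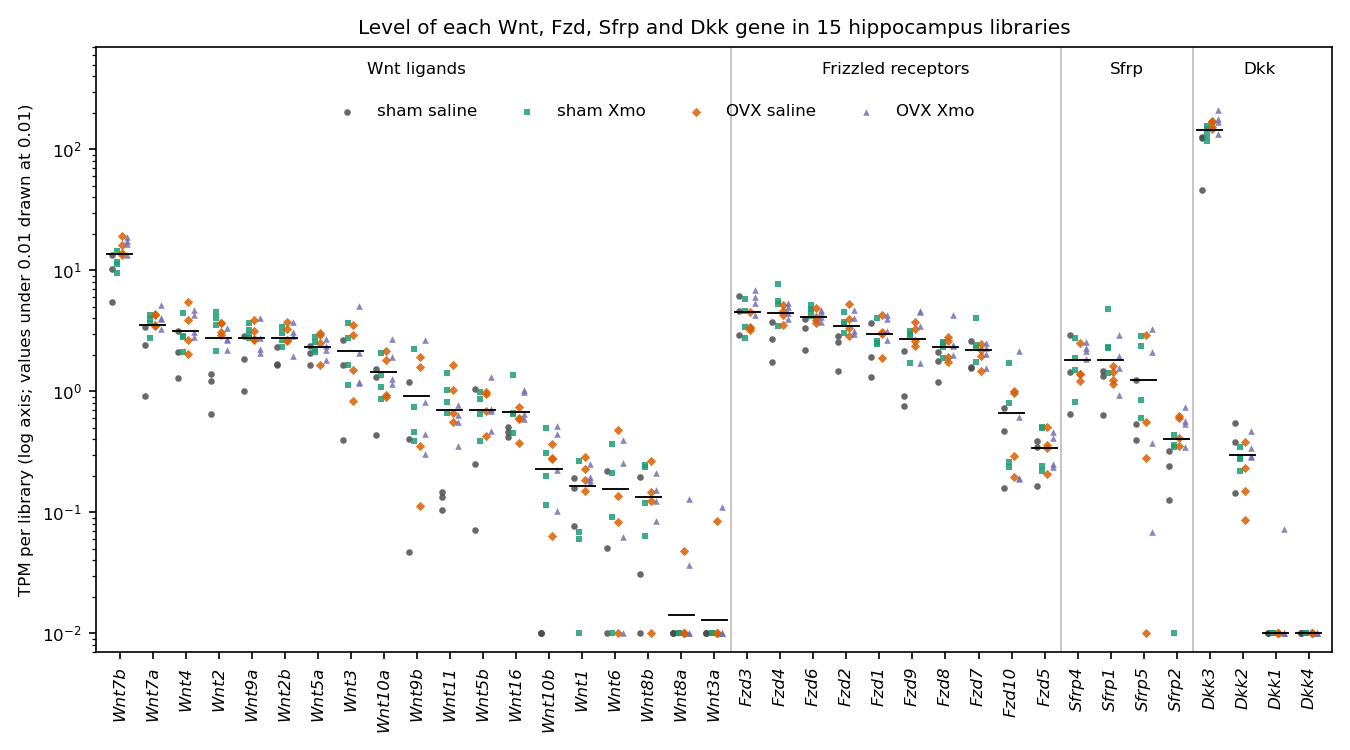
TPM of each member in each of the 15 libraries on a log axis, by family, with points for libraries coloured by group and lines for the mean; values under 0.01 are drawn at 0.01. Dkk3 (mean 145 TPM) stands above every other member, Wnt7b (mean 13.6 TPM) leads the ligands, and the Fzd genes lie close together.

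Wnt2, a ligand of the canonical branch, was lowest in the sham saline libraries. On the TMM-scaled CPM scale the sham saline libraries had 1.92, 1.54 and 2.13. The sham Xmo libraries had 2.98, 4.28, 5.44 and 4.73 CPM, those of OVX saline 3.76, 4.38, 3.58 and 3.94, and those of OVX Xmo 3.72, 2.47, 3.13 and 3.43. All 3 sham saline libraries lay below the other 12, the nearest of which was OVX Xmo 2. The sham saline mean was 1.86 ± 0.303 CPM (SD, n = 3), and with n = 4 the means of sham Xmo, OVX saline and OVX Xmo were 4.36 ± 1.03, 3.92 ± 0.345 and 3.19 ± 0.536 CPM. Against sham saline, the log2 difference was 1.22 for sham Xmo, 1.06 for OVX saline and 0.77 for OVX Xmo. Within OVX animals the log2 difference of Xmo from saline was -0.30, and these groups overlapped (-0.20 without OVX Xmo 2). On the TMM scale the sham saline libraries also had brain endothelium sums above all others, and they had mostly larger mitochondrial shares, as given above. Relations of the tested members, Fzd3 among them, to the marker lists were computed over all libraries. The part of endothelium or of mitochondrial share in the group differences of Wnt2, Wnt10b and Fzd3 was not tested. Counts behind these values were 32 to 55 in sham saline and 69 to 191 elsewhere, and the gene (ENSMUSG00000010797, chr6:17988940-18030585, minus strand) overlaps no other annotated gene. In TPM the same order held, with 3.55 ± 1.01 for sham Xmo, 3.35 ± 0.381 for OVX saline, 2.72 ± 0.457 for OVX Xmo and 1.08 ± 0.384 for sham saline.

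Wnt10b, a ligand known for restraining fat cell formation and promoting bone formation, had no count in any sham saline library and some in each of the 12 others. Its counts in the sham Xmo libraries were 8, 6, 11 and 24. OVX saline libraries gave counts of 4, 13, 10 and 8, and OVX Xmo libraries 21, 4, 12 and 8. As TMM-scaled CPM the mean of sham Xmo was 0.348 ± 0.190 (SD, n = 4), that of OVX saline 0.298 ± 0.143 and that of OVX Xmo 0.380 ± 0.216. A count of 0 allows up to 3 counts per library, which is a mean of 0.124 CPM in sham saline. The sham Xmo mean was 2.81 times this floor, the OVX saline mean 2.40 times and the OVX Xmo mean 3.07 times. These ratios describe a gene chosen for its values. They carry no error for the groups with counts, so they are not lower bounds. Leaving out 1 library moved them to 2.15 to 3.35, 2.02 to 2.94 and 2.57 to 3.79 in the same order. The floor covers counting error only, and OVX saline 1 (0.1002 CPM) and OVX Xmo 2 (0.112 CPM) lay below it. Of the 19969 genes tested, Wnt10b was the 1 gene with 0 counts in all sham saline libraries and at least 1 count in every other library. Over all 51826 features there were 4. Wnt10b was singled out for its values and passed the filter on low counts only through the other groups, so this only describes the choice. Wnt1, its neighbour on chromosome 15 at a distance of 11706 bp, had counts in all 3 sham saline libraries (0.192 to 0.328 CPM). Wnt10b (ENSMUSG00000022996, chr15:98771753-98778150, minus strand) overlaps no other annotated gene.

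Both ligands, which were singled out for these values, lay lower in sham saline than in all 12 other libraries. Among all tested genes 670 (3.36%) lay wholly lower in sham saline than in the other 12 libraries, and 339 (1.70%) wholly higher. Wnt2 and Wnt10b, as chosen, were the 2 members in the first set, and no member was in the second. The same count for the other groups gave far fewer genes. Wholly below all other libraries were 28 genes for sham Xmo, 16 for OVX saline and 24 for OVX Xmo. Wholly above were 48, 20 and 9 genes in the same order. The comparisons of OVX saline, sham Xmo and OVX Xmo with sham saline share those 3 libraries, so they are not independent of each other.

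**Figure D2:**
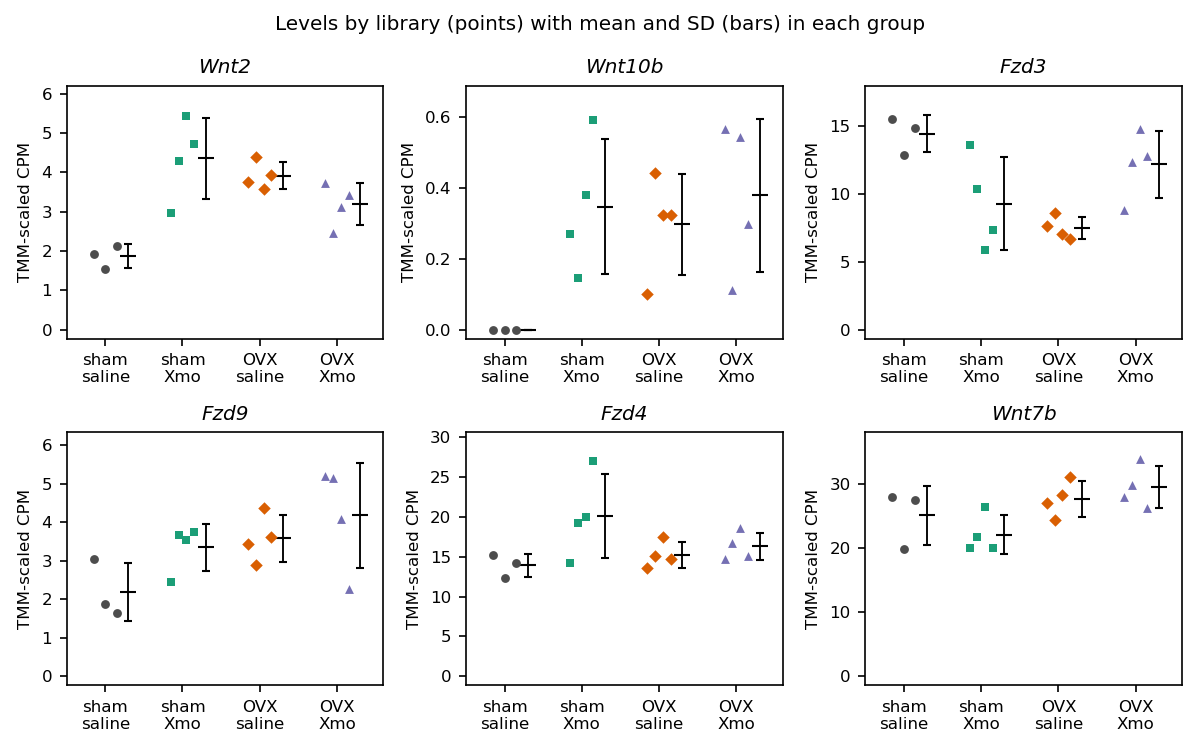
TMM-scaled CPM of members in each library by group, with points for libraries and bars for the group mean and SD. The sham saline points of Wnt2 (1.54 to 2.13) and Wnt10b (0) lie below all others, whereas Fzd3 is high in sham saline (12.9 to 15.6) and low in OVX saline (6.71 to 8.59).

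The effect of ovariectomy alone was read from OVX saline against sham saline. Of the 31 members tested (Wnt2 and Wnt10b left out), Fzd3 passed as lower and none passed as higher, where 6.24% of all genes passed in either direction and 2.59% passed as lower. Fzd3 (ENSMUSG00000007989, chr14:65201026-65262463, minus strand) was at 15.6, 12.9 and 14.9 CPM in sham saline against 7.64, 8.59, 7.03 and 6.71 CPM in OVX saline. Every OVX saline library lay below every sham saline library. The means were 14.5 ± 1.38 CPM (SD, n = 3) and 7.49 ± 0.830 (n = 4), a log2 fold change of -0.95 (SE 0.23, adjusted p = 0.0321, edgeR's quasi-likelihood test with Benjamini-Hochberg adjustment over all 19969 genes). The call was lost without any 1 of the 7 libraries of these groups, with an adjusted p of 0.0601 to 0.0888, and with library totals in place of TMM scaling (log2 fold change -0.64, adjusted p = 0.0624). With library totals the 1 member that passed was Fzd9, as higher (0.99, adjusted p = 0.0419). DESeq2 called Fzd3 alone among the members, where it called 11.6% of all genes. In TPM, which is not TMM-scaled, the groups overlapped, at 6.13, 2.94 and 4.58 in sham saline and 3.23, 4.54, 3.33 and 3.41 in OVX saline. Sham saline 2, the library with the largest mitochondrial share, gave the lowest of these TPM values.

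Other members moved less relative to their spread after ovariectomy. Dkk2, a Lrp-binding antagonist, was at 1.26, 0.577 and 1.11 CPM in sham saline, against 0.501, 0.204, 0.716 and 0.285 CPM in OVX saline, and the groups overlapped (log2 fold change -1.19, SE 0.40, adjusted p = 0.0846). Fzd9, a receptor studied for its part in hippocampal development, was at 2.18 ± 0.749 CPM (SD, n = 3) and 3.57 ± 0.609 (n = 4), with a log2 fold change of 0.70 (SE 0.29, adjusted p = 0.152). Over the 31 members 16 were higher and 15 lower, the median log2 fold change was 0.01 against 0.01 for all genes, and 4 had an unadjusted p under 0.05, where 24.7% of all genes did. Wnt11 and Fzd3 were the 2 members without overlap between the groups, where 24.5% of all genes had none. Wnt7b was at 25.1 ± 4.6 CPM in sham saline and 27.7 ± 2.79 in OVX saline, a difference within the spread of the sham saline libraries.

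In the sham animals, Xmo was compared with saline. None of the 31 members passed, where 1.51% of all genes did. DESeq2 called 0 members as well (5.56% of all genes), and 3 had an unadjusted p under 0.05 by edgeR, where 18.4% of all genes did. Those 3 were the Norrin receptor Fzd4, Fzd3 and Wnt11. Fzd4 was at 15.3, 12.3 and 14.2 CPM in sham saline, against 14.2, 19.2, 19.96 and 27.1 CPM in sham Xmo. Sham Xmo 1 lay within the sham saline range and the other 3 above it (log2 fold change 0.53, SE 0.18, adjusted p = 0.126). The highest value was that of sham Xmo 4, whose choroid plexus markers summed to 10914 CPM. This library also had the highest neutrophil and blood sum, at 3243 CPM, and a high meninges and fibroblast sum, at 226 CPM. The part of any of these in the Fzd4 difference was not tested. Without sham Xmo 4 the log2 fold change of Fzd4 was 0.34 (adjusted p = 0.310), and with library totals it was 0.82 (adjusted p = 0.0225). Fzd3 was at 13.6, 10.4, 5.89 and 7.35 CPM in sham Xmo, so it also ran from within the sham saline range to well below it (log2 fold change -0.64, SE 0.23, adjusted p = 0.160, or -0.37 with library totals).

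Wnt11, a ligand known mainly for beta-catenin-independent signalling, was low throughout. It was at 0.314, 0.384 and 0.410 CPM in sham saline, against 0.576, 1.29, 0.866 and 0.742 CPM in sham Xmo, without overlap (log2 fold change 1.24, SE 0.46, adjusted p = 0.164). It was the 1 member of 31 without overlap in this comparison, against 14.2% of all genes. OVX saline gave 0.751, 0.476, 0.553 and 1.06 CPM, also above sham saline, and OVX Xmo 0.836, 0.562, 0.862 and 0.224 CPM, where OVX Xmo 4 was the lowest of all 15 libraries. In TPM all 3 sham saline libraries (0.105 to 0.146) lay below OVX Xmo 4 (0.350) and the others, so the position of OVX Xmo 4 depends on the scale.

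OVX Xmo against sham saline also gave no call among the 31 members by edgeR, where 1.19% of all genes passed; 1 member had an unadjusted p under 0.05, where 18.9% of all genes did. That member was Fzd9, at 3.04, 1.87 and 1.64 CPM in sham saline, against 5.21, 5.14, 4.08 and 2.27 CPM in OVX Xmo (log2 fold change 0.93, SE 0.29, adjusted p = 0.11). DESeq2 called Fzd9 in this comparison, where it called 5.6% of all genes, and edgeR called it without OVX Xmo 4 (log2 fold change 1.13, adjusted p = 0.0278). Fzd7, a receptor found on stem and progenitor cells, was next, at 6.84 ± 1.02 CPM in sham saline and 4.91 ± 0.744 in OVX Xmo (log2 fold change -0.48, SE 0.23, adjusted p = 0.268, or -0.17 with library totals). No member was without overlap, where 14.9% of all genes were. Wnt7b was at 29.5 ± 3.26 CPM in OVX Xmo, with a log2 fold change of 0.23 from sham saline (SE 0.14, adjusted p = 0.406). That value was 0.08 without sham saline 2, 0.14 without OVX Xmo 3 and 0.51 with library totals, and none of these passed.

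In ovariectomized animals, too, Xmo was compared with saline. No member passed, and neither did any other gene (0% of 19969); 1 member had an unadjusted p under 0.05, where 4.18% of all genes did, and DESeq2 called 0 members (0.015% of all genes). Fzd3 was that member. Its values of 8.85, 12.4, 14.8 and 12.8 CPM in OVX Xmo all lay above the 4 OVX saline values, and it was the 1 of 31 members without overlap, against 3.11% of all genes. The mean in OVX Xmo was 12.2 ± 2.47 CPM (SD, n = 4) and the log2 fold change 0.70 (SE 0.22), with an adjusted p of 0.998. Sfrp4 (0.49, SE 0.26) and Dkk2 (0.64, SE 0.38) had the next smallest p, each with an adjusted p of 0.998. Without OVX saline 2 these were 0.78 and 0.41, and without OVX saline 3 Dkk2 was at 0.98. By sign 25 of the 31 members were higher in OVX Xmo and 6 lower, with a median log2 fold change of 0.11 against 0.00 for all genes. The changes were small, with a median absolute log2 fold change of 0.120 for the members and 0.129 for all genes. Higher and lower members numbered 19 and 12 in sham Xmo against sham saline, and 21 and 10 in OVX Xmo against sham saline. They numbered 18 and 13 in OVX Xmo against sham Xmo. Members share the same libraries, so their signs are not independent, and the sign counts were not tested.

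Ovariectomy under Xmo was read from OVX Xmo against sham Xmo. No member passed, where 0.01% of all genes did, DESeq2 called 0 (0.381% of all genes), and 1 had an unadjusted p under 0.05, where 10.2% of all genes did. Wnt7b was that member: it was at 20.1, 21.7, 26.5 and 20.1 CPM in sham Xmo and 28.1, 29.9, 33.9 and 26.3 CPM in OVX Xmo. The lowest OVX Xmo library lay just under the highest sham Xmo library (log2 fold change 0.42, SE 0.13, adjusted p = 0.334). Fzd7 (-0.40, SE 0.21) and Fzd4 (-0.31, SE 0.16) followed, each with an adjusted p of 0.537. Without sham Xmo 4 they were -0.16 and -0.14. No member was without overlap, where 5.88% of all genes were.

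The interaction, the Xmo effect in OVX minus that in sham animals, tests whether the Xmo difference depended on surgery. No member passed by edgeR, where 0.416% of all genes did, and 3 had an unadjusted p under 0.05, where 17.4% of all genes did. Fzd3 came nearest: Xmo libraries averaged less than saline libraries in sham animals (9.31 ± 3.43 against 14.5 ± 1.38 CPM) and more in OVX animals (12.2 ± 2.47 against 7.49 ± 0.830 CPM). The interaction was 1.34 on the log2 scale (SE 0.32, adjusted p = 0.0704). It passed with DESeq2 (1.35, adjusted p = 0.00454), which called 4.27% of all genes, and, by edgeR, without sham Xmo 1 (1.58, adjusted p = 0.0285). Dkk2 had an interaction of 1.42 (SE 0.55, adjusted p = 0.20) and Wnt11 of -1.42 (SE 0.60, adjusted p = 0.246). The value for Wnt2, given without a test, was -1.52.

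**Figure D3:**
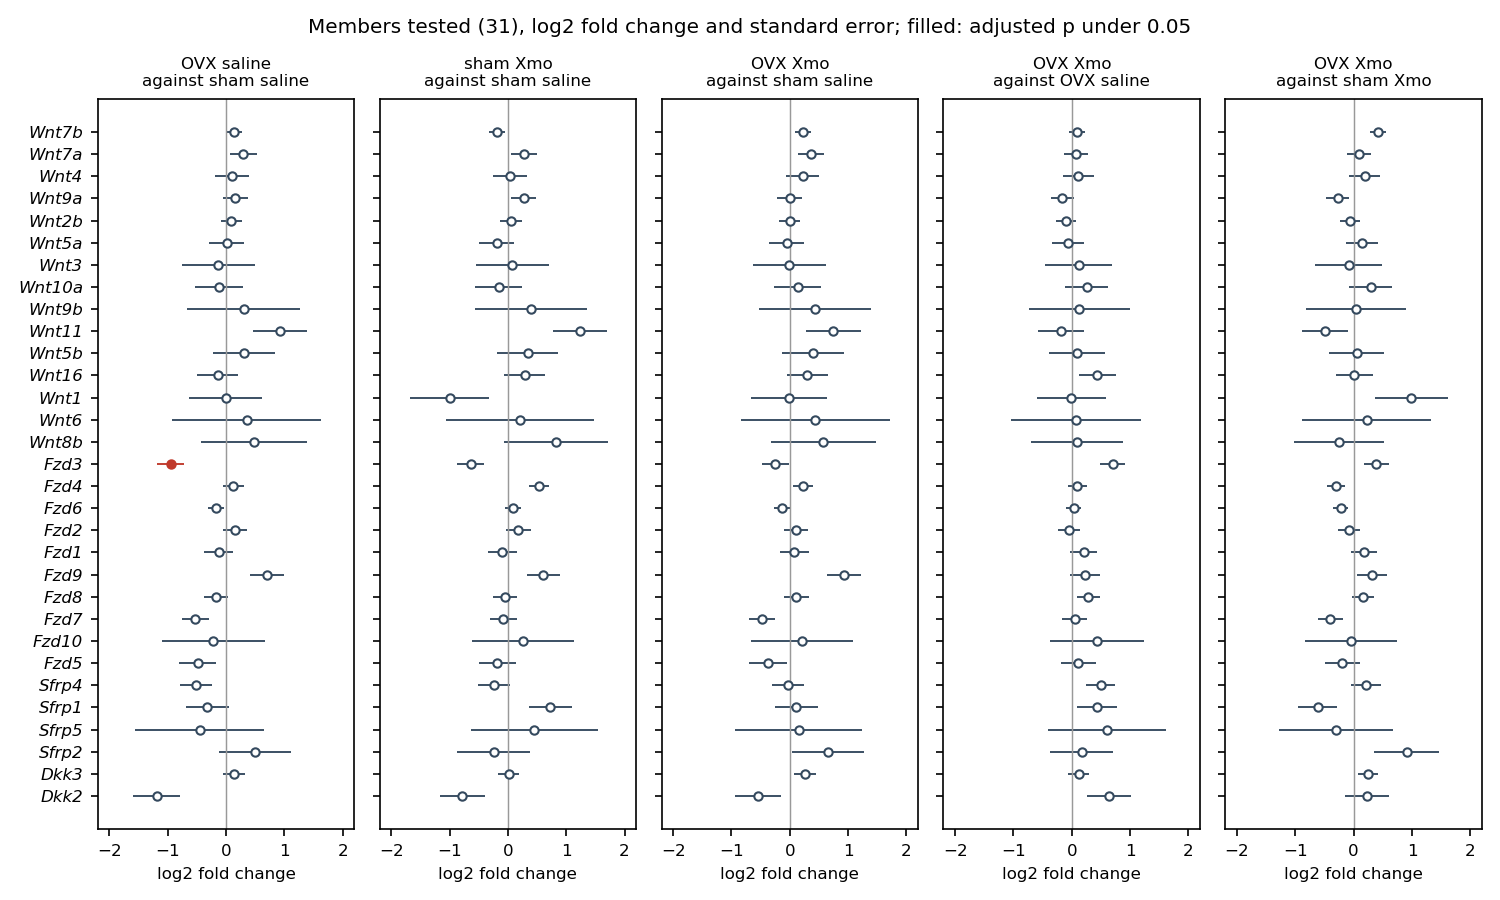
Log2 fold changes of the members (rows) in the comparisons (panels), with bars for the SE from edgeR's quasi-likelihood fit; Wnt2 and Wnt10b carry no test. Fzd3 in OVX saline against sham saline (-0.95) is the 1 tested member past an adjusted p of 0.05.

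The Sfrp and Dkk genes gave no call in any of the 6 comparisons by edgeR or DESeq2. Dkk2 was the 1 gene of these families with an unadjusted p under 0.05 by edgeR, after ovariectomy and in the interaction. Sfrp1 was at 2.98 to 5.05 CPM in sham saline, against 3.76, 5.43, 5.48 and 10.9 CPM in sham Xmo. The high value was sham Xmo 4, which also had the highest choroid plexus sum and the highest neutrophil and blood sum. Sfrp5 ran from 0 to 3.06 CPM over the libraries, with low and high values inside every group. Sfrp4 was at 3.12 ± 0.717, 2.65 ± 0.763, 2.18 ± 0.813 and 3.07 ± 0.400 CPM in sham saline, sham Xmo, OVX saline and OVX Xmo. Sfrp2 stayed under 1 CPM in every library, with 0 in sham Xmo 3. Dkk3 was at 250 ± 85.2, 252 ± 17.3, 277 ± 11 and 300 ± 56.2 CPM in the same order, and its lowest library was sham saline 2 at 163 CPM.

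Other genes of the pathway were followed through 5 lists that hold 78 genes, of which 74 were tested (Cer1, Sost, Rspo4 and Sp5 were too low). After ovariectomy 1 of the 74 passed as higher and 4 as lower, beside 6.24% of all genes. Among secretion and extracellular modulators 1 of 16 passed: Rspo3, which encodes an R-spondin that keeps Frizzleds at the cell surface, fell to 6.18 ± 0.537 CPM from 11.1 ± 2.61 (log2 fold change -0.85, SE 0.21, adjusted p = 0.0304). Among intracellular transducers 3 of 23 passed, all lower. Gsk3b, a kinase that marks beta-catenin for destruction, fell from 205 ± 37 to 146 ± 7.97 CPM (-0.49, adjusted p = 0.0406). Its relative Gsk3a fell from 219 ± 37.1 to 165 ± 14.2 CPM (-0.40, adjusted p = 0.0462), and Tle3, a co-repressor bound by Tcf factors, from 30.8 ± 2.59 to 21.8 ± 3.55 CPM (-0.50, adjusted p = 0.0422). Celsr3, a cadherin that works with Fzd3 in axon guidance, was the 1 of 11 planar cell polarity genes that passed and rose from 192 ± 7.82 to 265 ± 17.3 CPM (0.47, adjusted p = 0.0496).

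These calls were close to the threshold. With library totals in place of TMM scaling Rspo3, Gsk3b, Tle3 and Gsk3a had log2 fold changes of -0.55, -0.17, -0.18 and -0.08 and none passed, while Celsr3 was at 0.79 and passed. With no filter on low counts none of the 5 passed. Celsr3 was also lost with DESeq2's size factors (adjusted p = 0.0522), and Tle3 and Gsk3a with only the groups compared in the fit (adjusted p = 0.0644 and 0.0751). Of the refits that left out 1 of the 15 libraries, Rspo3 and Tle3 each passed in 9, Gsk3a and Gsk3b each in 6, and Celsr3 in 3. Without sham saline 3 Gsk3a was at -0.26 (adjusted p = 0.187). In sham Xmo against sham saline Gsk3a was the 1 of 74 genes that passed, at 148 ± 12.2 CPM in sham Xmo (-0.56, SE 0.11, adjusted p = 0.0280), beside 1.51% of all genes. This call was lost without sham saline 3 (-0.41, adjusted p = 0.128), sham Xmo 3 or sham Xmo 4, with library totals (-0.26, adjusted p = 0.217), with no filter on low counts (adjusted p = 0.0501) and with only the groups compared (adjusted p = 0.169). A gene annotated on the other strand overlaps 16.4% of Gsk3a, with the strand setting of the counting not given in the sources used here. None of the 74 passed in the other comparisons by edgeR, where 9 (OVX Xmo against sham saline), 0 (against OVX saline), 7 (against sham Xmo) and 16 (the interaction) had an unadjusted p under 0.05, beside 18.9%, 4.18%, 10.2% and 17.4% of all genes. DESeq2 called 0, 0, 1 and 6 of the 74 there, beside 5.6%, 0.015%, 0.381% and 4.27% of all genes. It called 10 after ovariectomy and 7 in sham Xmo against sham saline, beside 11.6% and 5.56%.

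Co-receptors and the feedback and target list gave no call by edgeR in any comparison. Of 16 co-receptor and turnover genes 0 to 3 had an unadjusted p under 0.05 and DESeq2 called 0; of 15 feedback and target genes 0 to 5 did, where 4.18% to 24.7% of all genes did. DESeq2 called 2 feedback and target genes after ovariectomy and 1 in sham Xmo against sham saline, beside 11.6% and 5.56% of all genes. Axin2, the target and negative feedback gene most used as a readout of the canonical branch, averaged 25.9 ± 0.751, 25.0 ± 2.59, 24.8 ± 1.89 and 21.7 ± 2.91 CPM in sham saline, sham Xmo, OVX saline and OVX Xmo. The co-receptor gene Lrp6 was at 69.8 ± 1.03, 76.0 ± 9.24, 67.3 ± 0.671 and 70.8 ± 6.72 CPM in the same order. Ctnnb1, which encodes beta-catenin, was at 218 ± 26.9, 237 ± 27.9, 208 ± 27.6 and 215 ± 32.0 CPM. For Axin2 every OVX Xmo library lay below every sham saline library (log2 fold change -0.25, SE 0.12, edgeR adjusted p = 0.250), where 14.9% of all genes had no overlap. In the other comparisons its groups overlapped. For Lrp6 every OVX saline library lay below every sham saline library (-0.05, SE 0.10, edgeR adjusted p = 0.781), where 24.5% of all genes had no overlap.

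Several members varied strongly between libraries within every group, in step with markers of neighbouring regions. Wnt3, Wnt9b, Fzd10 and Wnt10a were taken up here after their values were seen. The marker lists were also chosen with earlier results of these data known. The p-values of these relations are therefore a description and no independent support. Wnt3 ran from 0.944 CPM in sham saline 3 to 7.75 in OVX Xmo 2, Wnt9b from 0.164 to 5.90 and Fzd10 from 0.317 to 3.48 CPM. Over the 15 libraries, 372 relations between log2 levels of members and of 12 marker lists were computed. Fzd10 followed the thalamus and habenula list with Pearson's r = 0.905 (two-sided permutation p = 1e-05, the smallest that 100000 permutations can give, adjusted p = 0.00372) and Spearman's rho = 0.843 (adjusted permutation p = 0.0136). Without the 2 libraries farthest from the median, r was 0.862, and after subtracting group means it was 0.926. Wnt3 gave r = 0.882 (adjusted permutation p = 0.00496) and rho = 0.914 (adjusted permutation p = 0.00372), with r = 0.855 without the farthest 2 libraries and 0.921 within groups. Wnt9b gave r = 0.794 (adjusted permutation p = 0.0231) and rho = 0.743 (adjusted permutation p = 0.143), with r = 0.778 and 0.850. This list sums 10 genes, of which 9 passed the filter and Gbx2 and Pou4f1 were at 0 in some libraries; it includes Tcf7l2 and Lef1, themselves Wnt pathway genes.

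Wnt10a followed neocortical layer markers (r = 0.869, adjusted permutation p = 0.00496; rho = 0.864, adjusted permutation p = 0.0136), with r = 0.856 without the farthest 2 libraries and 0.921 within groups. The summed neocortical markers ran only from 233 to 349 CPM, and their list includes Rspo1, itself a Wnt pathway gene. Dkk3 followed the CA1 pyramidal cell list (r = 0.775, adjusted permutation p = 0.0434), but rho was 0.600 and r fell to 0.592 without the farthest 2 libraries. Fzd4 followed choroid plexus markers (r = 0.788, adjusted permutation p = 0.0473; rho = 0.507, adjusted permutation p = 0.473). That relation rested on sham Xmo 3 and 4, without which r was 0.490. The choroid plexus list includes Sostdc1, which is also in the pathway lists above. The points of a relation share each library's depth and scaling.

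**Figure D4:**
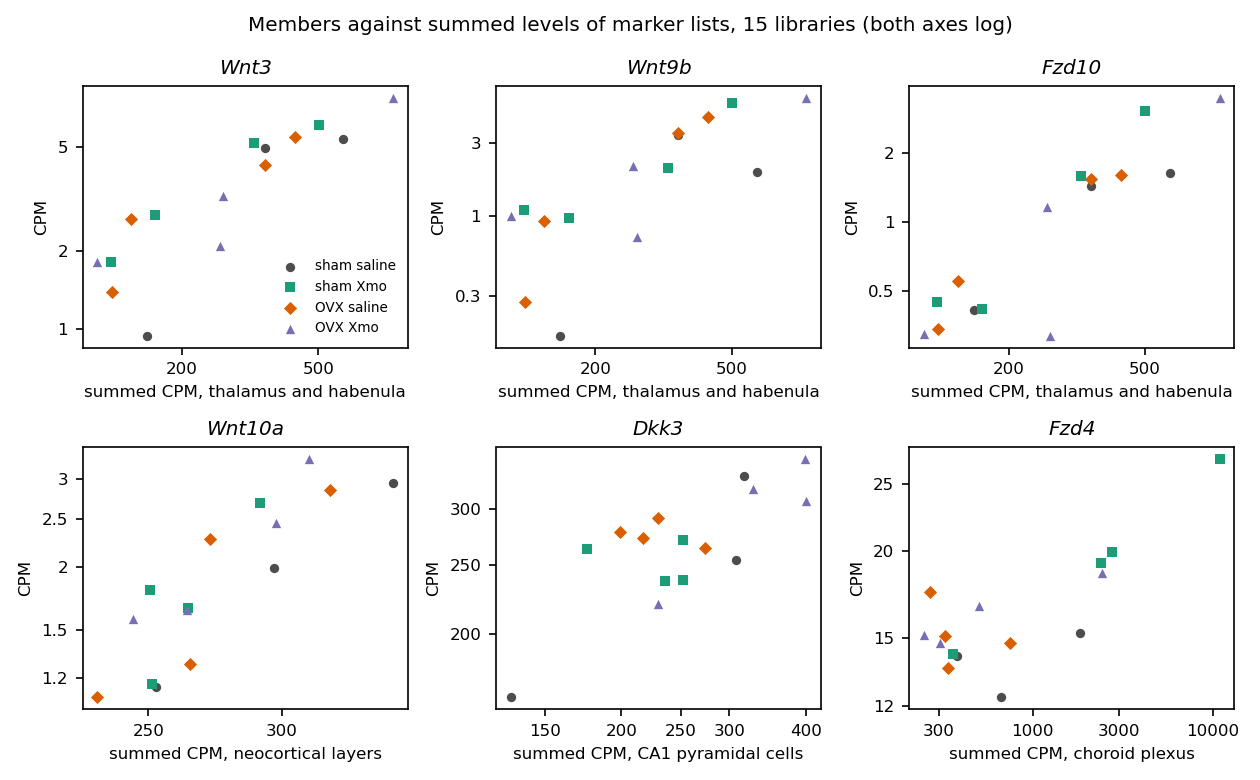
TMM-scaled CPM of members (vertical, log axis) against the summed TMM-scaled CPM of a marker list (horizontal, log axis), 1 point per library coloured by group. Wnt3, Wnt9b and Fzd10 are higher where the thalamus and habenula sum is higher, Wnt10a with the neocortical sum, and the highest Fzd4 point is sham Xmo 4, the library with the largest choroid plexus sum.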

How the data were processed

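The 15 mRNA libraries were analysed; the miRNA libraries were not used here. The authors deposited whole-number counts and TPM per gene and library, per the file headers. Per the submitters' processing notes, FastQC 0.11.2, Trimmomatic 0.36, Bowtie2 2.3.2, StringTie 1.3.3b and GRCm38.p6 were used, with roles and strand setting not given in the sources used here. Another 12 columns hold values whose names match no sample here, and no step used them. edgeR 4.0.16 (filterByExpr, TMM factors, quasi-likelihood fit over all 4 groups with 11 residual degrees of freedom, R 4.3.3) tested 19969 genes, with 0.05 as the limit for the Benjamini-Hochberg adjusted p. DESeq2 1.42.0, other filters and scalings, a replicate block and leaving out each library were alternatives. Totals of 20848661 to 39140593 counts leave members with a few counts, such as Wnt10b, imprecise, and floors and intervals cover counting error only. Relations to marker lists used log2(CPM + 0.1).

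Members and lists were chosen with earlier results of these data known. Named were Wnt2, Wnt10b, members past a test, the 3 of smallest p per comparison, the 5 ligands and 5 receptors of highest mean TPM, every Sfrp and Dkk past the filter, up to 4 genes past the test per pathway list, and Axin2, Ctnnb1 and Lrp6.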

Additional observations from a re-analysis of the deposited data

Results flagged for a closer look

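In groups of 4 libraries, 6 of 99 member groups held a library far from the other 3 (Dixon's gap test), where chance gives about 1 in 20. Fzd9 was low in sham Xmo 1 at 2.44 CPM (the others 3.53 to 3.74), and Fzd5 was low in OVX saline 1 at 0.827 CPM (1.22 to 1.27). Wnt16 was high in OVX Xmo 4 at 1.38 CPM (0.771 to 0.836), as was Wnt1 at 0.373 CPM (0.225 to 0.243). Fzd8 was high in OVX Xmo 2 at 7.10 CPM (3.84 to 4.08), and Sfrp4 was high in OVX saline 2 at 3.40 CPM (1.66 to 1.85). The values are TMM-scaled.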

How the results depend on the processing

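Alternatives were DESeq2, other filters and scalings, a replicate block and leaving out each library, up to 23 settings for a result and 10 for the Wnt10b ratios. Recomputed were the member counts, the fold changes of Wnt2 and of the 3 members of smallest p per comparison, the 6 pathway calls and the Wnt10b ratios. No fold change among these changed sign. The number of members called was 1 in OVX saline against sham saline, 0 with the replicate block (Fzd3 -0.91, adjusted p = 0.0824), 1 with library totals (Fzd9 in place of Fzd3) and 0 to 1 without 1 library each. In sham Xmo against sham saline it was 0, but 2 with library totals in place of TMM (Fzd4 and Wnt11) and 0 to 2 without 1 library each; without sham Xmo 1, Fzd4 (0.66, adjusted p = 0.0338) and Fzd3 (-0.88, adjusted p = 0.0401) passed. In OVX Xmo against sham saline it was 0, but 1 with DESeq2 (Fzd9 0.92, adjusted p = 0.0361), 1 with library totals (Fzd9 1.21, adjusted p = 0.0263) and 0 to 1 without 1 library each. For the interaction it was 0, but 1 with DESeq2 (Fzd3) and 0 to 1 without 1 library each. It stayed 0 in all settings for OVX Xmo against OVX saline and against sham Xmo. The cause of these changes was not tested. Library totals moved the median log2 fold change of all genes to 0.33, 0.32 and 0.31 in OVX saline, sham Xmo and OVX Xmo against sham saline. With TMM these medians were 0.01, 0.03 and 0.01. Relative to that shift Fzd9 and Fzd3 moved as in the TMM fit. Deviations of same-numbered libraries of different groups had a median correlation of -0.0373 over 21 pairs, 2 of them over 0.1. For libraries of different number the median was 0.0106 over 63 pairs, 15 of them over 0.1. The labels do not say what the numbers stand for, so these values cannot decide whether same-numbered libraries were handled together. The 6 pathway calls were also lost with the block. The depth limits Wnt10b and other members with a few counts. DESeq2 gave no adjusted p for 4, 8, 12 and 9 members in OVX saline, sham Xmo and OVX Xmo against sham saline and in the interaction.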
